A study of Mus musculus with 18 samples.

Results

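The IFN state and the IL4 state of macrophages labelled as L13a knockout, L13a being a ribosomal protein, were compared directly, gene by gene. The comparison set 3 libraries from L13a knockout cells treated with IFN (numbers 4, 5 and 6 of the titles) against 3 from knockout cells treated with IL4 (numbers 7, 8 and 9), 6 of 18 libraries in the series. Every gene that passed a filter on low counts entered it, 12514 of 21954 genes. The study sequenced poly-A RNA of mouse bone marrow derived macrophages of 2 genotypes, L13a knockout and wild type (called control in the titles). Cells of each genotype were given IFN, given IL4 or left untreated, with 3 libraries per group. The labels present the cytokines as inducers of the M1 and M2 states. Untreated knockout cells (numbers 1, 2 and 3) serve below as a level to read the treated cells against, and wild type cells given IFN or IL4 as the nearest comparison. All groups of the main comparison carry the same knockout. The type of interferon, the doses, the times, the age of the mice and the driver of the deletion were not given in the sources used here. Nothing in the labels says that libraries came from separate animals, so the p-values measure the spread between these libraries, which may be technical.

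Macrophages take on different programmes under different cytokines. Interferons activate JAK kinases at their receptors. Genes induced by interferon-gamma often carry palindromic GAS elements, and genes induced by type I interferon often carry the ISRE. Interleukin-4 signals through JAK1 and JAK3 to STAT6, which binds a related palindrome with a wider spacer and drives the genes used as markers of alternative activation. L13a belongs to the large subunit of the ribosome. In myeloid cells under interferon-gamma it leaves the ribosome and joins the GAIT complex, which holds back translation of a group of inflammatory mRNAs. RNA levels as measured here do not report translation.

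Depth, as the total of expected counts per library, was 20955326, 22551200 and 18098711 in knockout IFN cells and 24499576, 21776298 and 19085954 in knockout IL4 cells. Levels are given as CPM, counts scaled to a common library total, after TMM scaling unless TPM is named. The targeted gene was examined first. Rpl13a had 248, 189 and 425 CPM after IFN, against 206, 333 and 606 CPM after IL4, and the groups overlapped (log2 fold change -0.41, SE 0.39, adjusted p = 0.531, edgeR quasi-likelihood test). After IFN it averaged 287 ± 123 CPM in knockout and 536 ± 91.3 CPM in wild type cells, and after IL4 382 ± 204 CPM in knockout and 736 ± 135 CPM in wild type cells (SD, n = 3 each). Rpl13a RNA was thus still counted in every library labelled knockout, and IL4 library 9 lay within 1 SD of the wild type IL4 mean. Gene totals do not show which exons these reads cover, and absence of the protein was not measured here. Lyz2, the macrophage lysozyme gene, averaged 2.35 ± 1 CPM in knockout IFN cells and 4 ± 3.23 CPM in knockout IL4 cells. In wild type cells Lyz2 averaged 3357 ± 647 CPM after IFN and 5168 ± 1430.4 CPM after IL4.

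Macrophage identity was clear in all 6 libraries. The F4/80 gene Adgre1 averaged 2131 ± 698 CPM after IFN and 1836 ± 254 CPM after IL4, and the CSF1 receptor gene Csf1r averaged 3551 ± 130.3 CPM after IFN and 3318 ± 630.2 CPM after IL4 (SD, n = 3 each). Neither was called, and the directions of both turned in some alternatives. Of 12 macrophage markers 2 were called higher after IFN, the high-affinity IgG receptor gene Fcgr1 and Aif1, and 0 after IL4. The sum of 11 neutrophil markers was 106, 100.3 and 37.8 CPM after IFN and 101, 40.0 and 23.1 CPM after IL4, with the granule genes Camp, Elane and Prtn3 at 0. Of the 3 tested, Cxcr2 was called, with 0.104, 0.0518 and 0 CPM after IFN, against 4.92, 3.17 and 3.56 CPM after IL4. The 2 tested markers not called leaned the other way, with log2 fold changes above 0 and up to 2.22. The summed level of 15 fibroblast markers was 36.0, 210.1 and 637 CPM after IFN and 165, 166 and 885 CPM after IL4. Libraries 6 and 9 thus held the most fibroblast transcripts of their groups, and both also held the highest sums of 45 cell cycle genes, 1685, 1802 and 3479 CPM after IFN and 1455, 3226 and 4409 CPM after IL4. None of the 13 fibroblast markers tested was called between the states. The sums of endothelial markers did not overlap between states, with 43.9, 56.2 and 25.7 CPM after IFN and 369.5, 184 and 184 CPM after IL4. Most of that sum was Vwf, the gene of von Willebrand factor, while Cdh5 averaged 1.13 ± 0.478 CPM after IFN and 1.58 ± 2.21 CPM after IL4. Of 6 endothelial markers tested, 1 was called higher after IFN and 2 after IL4. Their median log2 fold change was -1.38, and it turned to 0.758 without libraries 6 and 9. The sums of 7 osteoblast markers likewise did not overlap between states, with 259, 525 and 594 CPM after IFN and 905, 1343 and 1222 CPM after IL4. Of 6 tested, 1 was called, Spp1, the gene of osteopontin, higher after IL4 (log2 fold change -1.49, adjusted p = 0.000939). Spp1 was among the most abundant genes called higher after IL4, at 434 ± 137 TPM after IFN and 1336 ± 202 TPM after IL4. The dendritic cell list split, with Clec9a, Xcr1 and Bst2 higher after IFN and Itgax, the gene of CD11c, higher after IL4. In bulk RNA, fewer cells of a type and less RNA per cell cannot be told apart. The part of other cells in the results below was not tested beyond leaving out libraries 6 and 9 together.

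**Figure D1:**
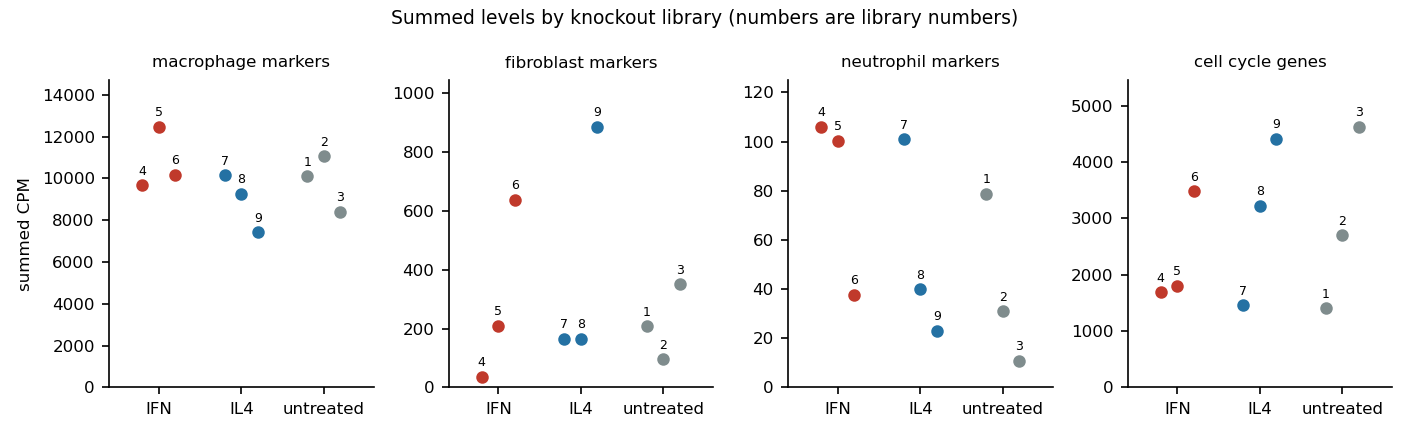
Summed CPM of marker lists and cell cycle genes in each knockout library (points, numbered as in the titles), for IFN, IL4 and untreated cells. Libraries 6 and 9 hold the highest fibroblast sums of their groups, 637 and 885 CPM, and the macrophage sums of IFN and IL4 cells overlap.

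The states differed in 2723 of the 12514 genes (21.8%, edgeR quasi-likelihood test, Benjamini-Hochberg adjusted p under 0.05). Of these, 1500 genes were higher after IFN (12% of genes tested) and 1223 were higher after IL4 (9.77%). Counts of called members of gene lists, above and below, are read against these shares. The split of 55.1% of calls toward IFN depended on scaling. With library size alone the share was 36.6%, and with limma on deposited TPM it was 40.3% or 39.7%, depending on the pseudocount. Library size alone also moved the median log2 fold change of all genes to -0.205, against -0.032 with TMM. Large differences were more often toward IFN: 875 genes were at least 2-fold higher after IFN and 630 after IL4, and at 16-fold the counts were 155 and 91. The 3 IFN and 3 IL4 values did not overlap for 4058 genes (32.4% of genes tested), and for 2616 of the called genes. Without libraries 6 and 9 the test called 1051 genes higher after IFN and 849 higher after IL4.

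**Figure D2:**
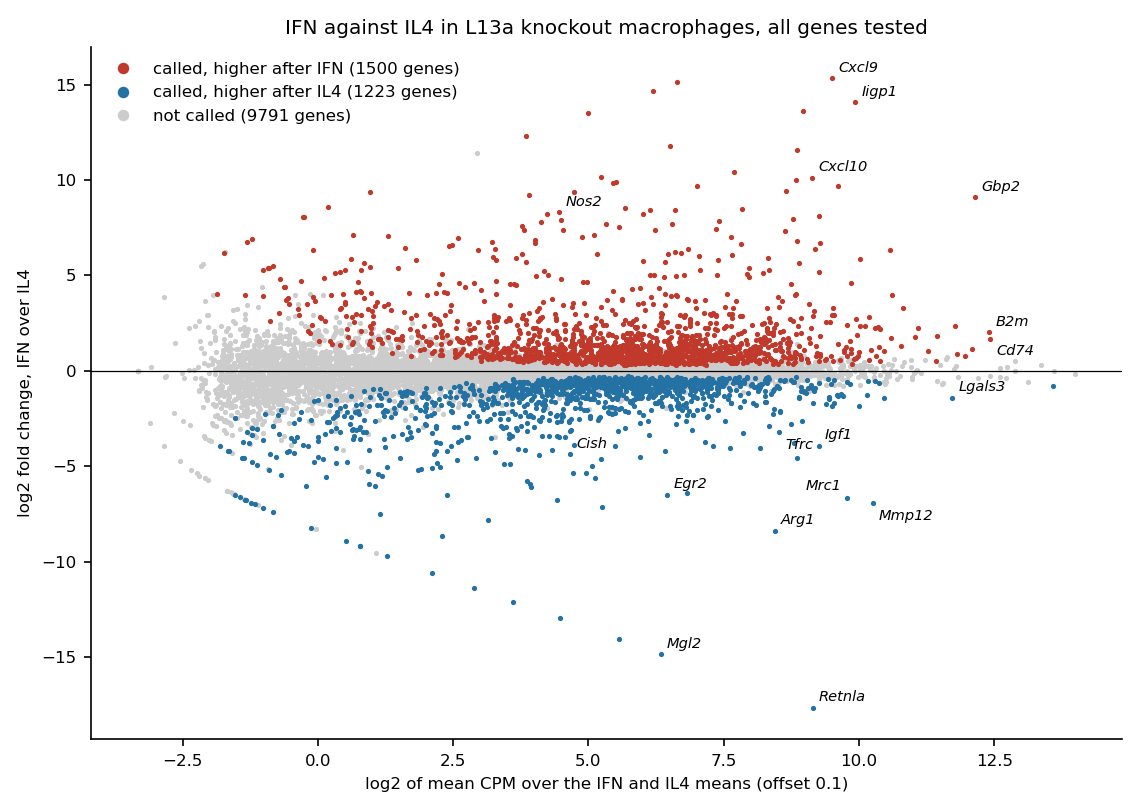
Log2 fold change of IFN over IL4 (vertical axis) against mean level as log2 CPM with an offset of 0.1 (horizontal axis) for 12514 genes in knockout macrophages. The calls are 1500 genes higher after IFN and 1223 higher after IL4; for genes with 0 counts in 1 state, such as Retnla, the plotted value depends on the prior count and is no measured fold.

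The untreated level was set beside both treated states, as a description without a test. For genes called higher after IFN, the untreated mean log2 level lay nearer to the IL4 mean in 1148 of 1500 (76.5%). For genes called higher after IL4 it also lay nearer to the IL4 mean in 714 of 1223 (58.4%). Untreated cells were below both treated states for 482 of the genes higher after IFN, and above both for 225 of the genes higher after IL4. Gbp2 and Socs1 show how differently such genes can sit. Gbp2 was at 7.52, 12.2 and 12.8 CPM in untreated libraries, close to the IL4 values given below. Socs1 was at 1.56, 2.1 and 2.14 CPM in untreated libraries, under both treated states.

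Receptors and signal transducers came first in the order of the pathway. Of 7 tested genes for receptors of interferon and IL4, 4 were higher after IFN and 0 after IL4. The 2 chains of the interferon-gamma receptor were not called. Il4ra, the IL4 receptor alpha chain, had 573, 573 and 407 CPM after IFN, against 128, 109 and 98.8 CPM after IL4 (log2 fold change 2.21, SE 0.20, adjusted p = 1.26e-06). The IL4 receptor was thus lower in the cells given its ligand, with no overlap, and the untreated libraries, at 160.5, 158 and 112 CPM, lay near the IL4 values. Il2rg, the common gamma chain, had 535, 1214 and 794 CPM after IFN, against 106, 143 and 122 CPM after IL4 (log2 fold change 2.78, adjusted p = 4.67e-05). Il13ra1, the partner chain of the type II receptor, was higher after IFN as well (log2 fold change 2.75, adjusted p = 1.11e-05), as was the interferon receptor chain Ifnar2 (log2 fold change 1.11, adjusted p = 2.37e-05).

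Among 11 JAK and STAT genes, 5 were higher after IFN and 1 after IL4. Stat2 and Stat3 were higher after IFN, with log2 fold changes of 2.99 and 2.07 (adjusted p = 4.99e-05 and 1.31e-06). Jak3, the kinase bound to the common gamma chain, was higher after IFN (log2 fold change 1.55, adjusted p = 1.44e-05). Stat6, the factor of the IL4 receptor, averaged 269 ± 49.0 CPM after IFN and 233 ± 54.6 CPM after IL4 and was not called (adjusted p = 0.488). Stat5a was the 1 member higher after IL4 (log2 fold change -0.64, adjusted p = 0.00172), a call lost with the 6 libraries alone (adjusted p = 0.0566).

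The feedback inhibitors divided by state. Socs1, which blocks JAK kinases, had 275, 316 and 309.5 CPM after IFN, against 29.4, 63.4 and 98.3 CPM after IL4 (log2 fold change 2.24, adjusted p = 0.000838). Both states were far above the untreated level given above. Socs3, the inhibitor of gp130 cytokine receptors, had 190.4, 139 and 119 CPM after IFN, against 7.41, 8.51 and 6.14 CPM after IL4 (log2 fold change 4.35, adjusted p = 1.36e-06). Cish, an SH2 protein induced through STAT5 and STAT6, showed the opposite pattern, with 1.86, 2.59 and 2.5 CPM after IFN, against 47.5, 51.4 and 45.7 CPM after IL4 (log2 fold change -4.38, adjusted p = 2.04e-07). Socs2 and Socs6 were also higher after IL4, with log2 fold changes of -4.19 and -1.55. In all, 5 of 13 tested inhibitors were higher after IFN and 3 after IL4.

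Interferon regulatory factors were mostly higher after IFN, with 6 of 8 called in that direction and 1 in the other. Irf1, the founding member of the family (chromosome 11, 53770014 to 53778374 on GRCm38), had 951, 856 and 762 CPM after IFN, against 69.7, 29.8 and 58.6 CPM after IL4 (log2 fold change 4.02, SE 0.38, adjusted p = 1.59e-06). Irf7, the amplifier of type I interferon production, had 239.9, 1613 and 915 CPM after IFN, against 9.48, 5.72 and 9.69 CPM after IL4 (log2 fold change 6.79, adjusted p = 2.70e-05). Library 4 held less Irf7 than libraries 5 and 6, and still far more than any IL4 library. Irf8, a lineage factor of macrophages, was higher after IFN (log2 fold change 2.56, adjusted p = 1.97e-05). Irf4, which acts with STAT6 in the IL4 programme, went the other way, with 1.66, 0.777 and 1.31 CPM after IFN, against 84.8, 22.3 and 45.8 CPM after IL4 (log2 fold change -5.35, SE 0.54, adjusted p = 3.26e-06). Irf3 was not called (adjusted p = 1).

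Of 14 transcription regulators linked to the IL4 state, 1 was higher after IFN and 7 after IL4. Egr2, a zinc finger factor induced by IL4, had 3.37, 1.61 and 0.772 CPM after IFN, against 205, 178 and 136 CPM after IL4 (log2 fold change -6.48, SE 0.68, adjusted p = 5.31e-06). Untreated libraries lay between, at 17.7, 12.4 and 9.89 CPM. Myc and Batf3 were also higher after IL4 (log2 fold change -2.20, adjusted p = 0.000888 for Myc, and log2 fold change -3.30, adjusted p = 0.000451 for Batf3). Pparg, Klf4 and Rxra passed the test by smaller margins, with log2 fold changes of -0.79, -1.35 and -1.13 (adjusted p = 0.0435, 0.0124 and 0.00579). Nr4a1, an orphan nuclear receptor of early responses, was the member higher after IFN (log2 fold change 2.79, adjusted p = 0.0203). That call was lost without library 5 (adjusted p = 0.0986), library 8 (0.0662), library 9 (0.0847) or libraries 6 and 9 together (0.0704).

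Promoter sequence was examined for the motifs of these factors. RefSeq promoter windows on GRCm38.p6, from 250 bases before to 50 after a start site, were found for 9667 tested genes, 12366 windows in all. The ISRE core, searched as GAAA, any 2 bases and GAAA on either strand, stood in 9.24% of windows of genes called higher after IFN and in 2.04% of those called higher after IL4. Its share over all windows was 3.39%. Among genes at least 4-fold higher after IFN it stood in 21.1% of windows, and among those at least 4-fold higher after IL4 in 2.14%. The GAS letters, TTCNNNGAA, were found in 8.51% of windows of genes higher after IFN, in 5.62% of those higher after IL4 and in 6.95% of all windows. The wider STAT6 type palindrome, TTC and GAA with any 4 bases between, was found in 5.35%, 6.51% and 5.51% of the same sets. These palindromes read the same on both strands. GAS and the STAT6 type met in 70 windows, and GAS and the ISRE core in 50. The shares are descriptions, and a match is not a bound site.

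The windows below are shown because they carry such a match in genes whose levels are given in the text. They run 5′ to 3′ on the strand of the gene, and capitals mark the matches. The first 4 belong to genes higher after IFN. Irf1 (chr11:53769764-53770063, plus strand) holds GAS letters beginning 90 bases before the start site, and a second window of this gene holds no match. Igtp (chr11:58199306-58199605, plus strand) holds GAS letters at -45 and an ISRE core at -34. Gbp5 (chr3:142496684-142496983, plus strand) holds GAS letters at -245 and -52 and an ISRE core at -165. Cxcl10 (chr5:92348840-92349139, minus strand) holds an ISRE core at -213. The last 3 belong to genes higher after IL4. Retnla (chr16:48842359-48842658, plus strand) and Pdcd1lg2 (chr19:29410669-29410968, plus strand) hold the STAT6 type palindrome at -145 and -82. Cish (chr9:107296409-107296708, plus strand) holds GAS letters at 1 and 12 after the start site. The windows shown are a selection, and GAS and STAT6 type letters stood in windows of genes of both states. STAT6 type letters also stood in windows of Stat2, Il18, Hk3 and Nlrp3, which were higher after IFN. GAS letters also stood in windows of Chil3, Batf3 and Slc7a11, which were higher after IL4.
Irf1: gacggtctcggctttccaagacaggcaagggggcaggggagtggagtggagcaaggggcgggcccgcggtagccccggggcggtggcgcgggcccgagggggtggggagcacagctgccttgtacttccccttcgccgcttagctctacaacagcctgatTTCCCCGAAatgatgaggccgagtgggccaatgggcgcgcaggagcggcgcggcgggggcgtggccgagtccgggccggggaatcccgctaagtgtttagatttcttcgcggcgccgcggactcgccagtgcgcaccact
Igtp: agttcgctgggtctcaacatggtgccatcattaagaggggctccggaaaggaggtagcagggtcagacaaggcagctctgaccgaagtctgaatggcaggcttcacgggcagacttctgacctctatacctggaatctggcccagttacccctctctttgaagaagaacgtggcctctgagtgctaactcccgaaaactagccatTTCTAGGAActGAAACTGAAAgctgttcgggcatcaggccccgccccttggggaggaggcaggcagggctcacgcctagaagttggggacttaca
Gbp5: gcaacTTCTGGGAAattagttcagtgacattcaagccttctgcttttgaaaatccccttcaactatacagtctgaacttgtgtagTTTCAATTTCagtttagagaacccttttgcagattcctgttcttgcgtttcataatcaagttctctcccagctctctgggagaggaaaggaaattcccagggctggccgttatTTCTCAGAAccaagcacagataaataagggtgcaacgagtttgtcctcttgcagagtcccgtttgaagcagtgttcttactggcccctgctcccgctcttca
Cxcl10: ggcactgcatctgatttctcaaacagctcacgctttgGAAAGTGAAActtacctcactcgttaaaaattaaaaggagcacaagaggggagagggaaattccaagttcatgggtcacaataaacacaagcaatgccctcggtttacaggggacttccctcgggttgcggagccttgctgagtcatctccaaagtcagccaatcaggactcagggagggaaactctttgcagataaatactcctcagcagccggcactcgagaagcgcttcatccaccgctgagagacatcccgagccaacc
Retnla: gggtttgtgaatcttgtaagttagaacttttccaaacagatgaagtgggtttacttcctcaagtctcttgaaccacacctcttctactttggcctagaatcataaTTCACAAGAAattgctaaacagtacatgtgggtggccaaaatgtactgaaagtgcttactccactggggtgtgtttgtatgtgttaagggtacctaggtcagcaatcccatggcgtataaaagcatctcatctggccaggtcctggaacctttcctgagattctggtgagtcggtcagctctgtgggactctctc
Pdcd1lg2: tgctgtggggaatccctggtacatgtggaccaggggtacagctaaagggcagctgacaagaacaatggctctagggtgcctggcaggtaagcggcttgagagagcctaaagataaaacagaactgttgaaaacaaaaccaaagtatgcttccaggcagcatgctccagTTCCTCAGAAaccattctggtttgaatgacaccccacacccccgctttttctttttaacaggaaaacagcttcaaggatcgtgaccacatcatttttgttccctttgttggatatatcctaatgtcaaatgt
Cish: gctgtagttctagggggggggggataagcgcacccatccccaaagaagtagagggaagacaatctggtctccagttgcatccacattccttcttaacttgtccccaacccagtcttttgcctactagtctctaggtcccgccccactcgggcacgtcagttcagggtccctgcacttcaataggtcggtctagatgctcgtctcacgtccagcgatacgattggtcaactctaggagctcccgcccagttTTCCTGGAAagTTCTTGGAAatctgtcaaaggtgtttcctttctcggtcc

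Interferon-inducible GTPases, which attack the vacuoles of intracellular microbes, had the highest median difference of the 40 lists. All 10 tested guanylate binding protein genes were higher after IFN, with a median log2 fold change of 9.28, against -0.032 over all genes. Gbp2 (chromosome 3, 142620602 to 142638008) had 8892, 9822 and 8425 CPM after IFN, against 28.2, 9.78 and 10.6 CPM after IL4 (log2 fold change 9.12, SE 0.57, adjusted p = 2.37e-08). It was among the most abundant transcripts of IFN cells, with 5644 ± 416 TPM, against 11.4 ± 7.87 TPM in IL4 cells (SD, n = 3 each). Gbp5, whose promoter is shown above, had 703, 992 and 717 CPM after IFN, against 1.79, 0.472 and 1.17 CPM after IL4 (log2 fold change 9.43, SE 0.46, adjusted p = 2.68e-09). Gbp2b and Gbp10 held 0 counts in all IL4 libraries. Against a floor of 3 counts over the IL4 group, Gbp2b was at least 4317-fold and Gbp10 at least 3240.4-fold higher after IFN. These genes lie in clusters on chromosomes 3 and 5 and share sequence, so reads divided among them by the counting software are less certain than their sum.

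All 7 tested p47 GTPase genes were likewise higher after IFN, with a median log2 fold change of 6.68. Igtp had 1105, 1504 and 1089 CPM after IFN, against 12.9, 10.9 and 12.1 CPM after IL4 (log2 fold change 6.68, SE 0.27, adjusted p = 3.73e-10). Iigp1 had 1949, 2128 and 1769.6 CPM after IFN, against 0.0407, 0.189 and 0.0974 CPM after IL4 (log2 fold change 14.09, SE 0.74, adjusted p = 4.12e-09). Irgm1, a regulator of the family, had 1068, 1363 and 1154 CPM after IFN, against 36.3, 27.1 and 34.6 CPM after IL4 (log2 fold change 5.19, adjusted p = 3.64e-09).

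The 27 tested genes of a type I interferon signature were all higher after IFN, with a median log2 fold change of 4.62 and a range from 1.51 to 8.48. The cytosolic nucleic acid sensor gene Zbp1 had 278, 488 and 421 CPM after IFN, against 5.82, 4.35 and 7.65 CPM after IL4 (log2 fold change 6.06, adjusted p = 4.92e-07). Dhx58, a regulator of RNA sensing, was higher after IFN (log2 fold change 3.94, adjusted p = 1.22e-07), and so was the ADP-ribosyltransferase gene Parp14 (log2 fold change 3.33, adjusted p = 1.21e-06). The antiviral Ifit and Oas genes moved together in direction but not in size. Ifit3 differed by 8.48 and Ifit2 by 7.97 on the log2 scale, while Oas1a differed by 2.37 (adjusted p = 4.53e-06, 1.80e-06 and 0.000712). Ifit1bl1, an Ifit paralogue, varied widely among the IFN libraries, at 20.2, 417 and 108 CPM, against 0, 0.0945 and 0.0487 CPM after IL4, where 3 or fewer counts were seen. The ratio was 4085, with a 95% exact counting interval of 1397 to 19811, which covers counting error only.

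**Figure D3:**
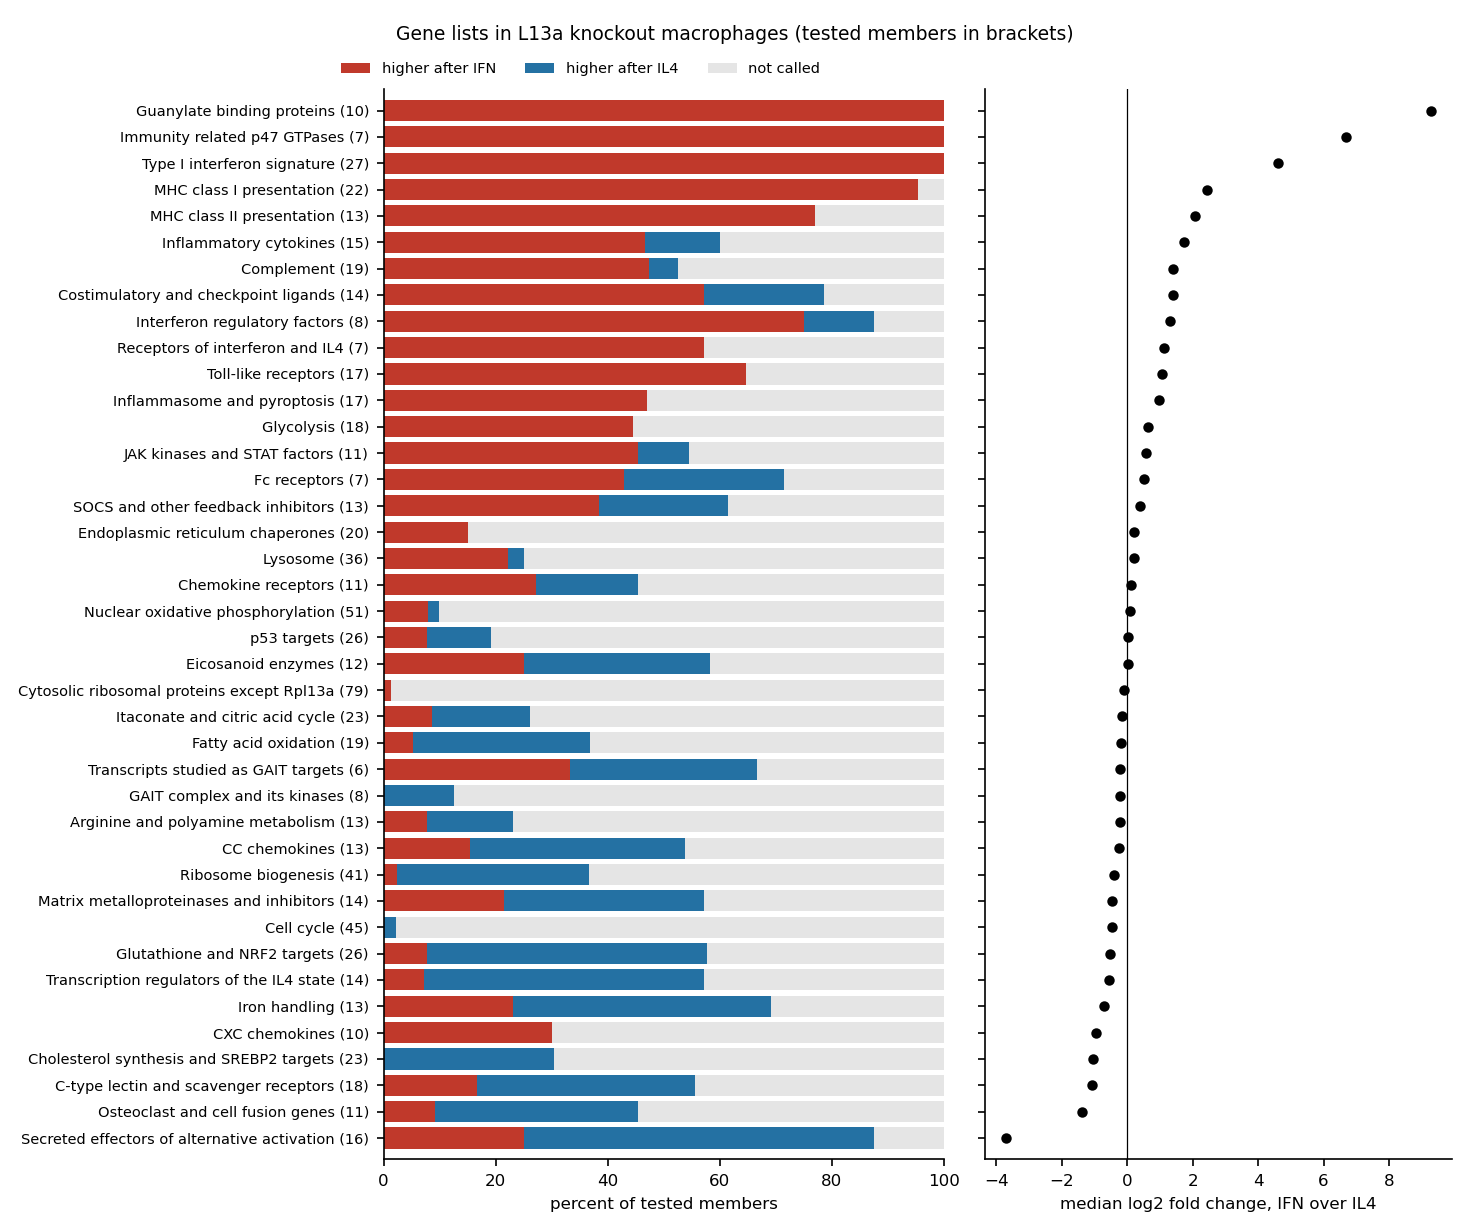
For 40 gene lists in knockout macrophages, the percent of tested members called higher after IFN, higher after IL4 or not called (left), and the median log2 fold change of IFN over IL4 (right). The number of tested members stands in brackets; every member of the 3 lists at the top was called higher after IFN, and the alternative activation effectors have the lowest median, -3.69.

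Antigen presentation followed. Of 22 tested genes of MHC class I presentation, 21 were higher after IFN and 0 after IL4 (median log2 fold change 2.43). The peptide transporter gene Tap1 had 834, 938 and 757 CPM after IFN, against 70.8, 46.5 and 43.0 CPM after IL4 (log2 fold change 3.98, SE 0.23, adjusted p = 1.12e-08). Psmb9, a catalytic subunit of the immunoproteasome, had 280, 278 and 289 CPM after IFN, against 32.7, 34.0 and 37.2 CPM after IL4 (log2 fold change 3.03, adjusted p = 4.13e-08). Psmb9 was tight within both groups, while Tap1 spread more after IL4. B2m, the light chain of class I molecules, had the highest level of any gene called higher after IFN, 18472 ± 2258 TPM, against 4992 ± 1574 TPM after IL4 (SD, n = 3 each). Nlrc5, the class I transactivator, was higher after IFN (log2 fold change 3.47, adjusted p = 6.51e-05). Calr was the member not called (log2 fold change 0.47, adjusted p = 0.0682).

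Class II presentation differed in the same direction, with 10 of 13 tested genes higher after IFN (median log2 fold change 2.06). No member was called higher after IL4, yet for some genes the IL4 libraries also stood above the untreated ones. Ciita, the class II transactivator, had 208, 169.8 and 194 CPM after IFN, against 44.1, 11.8 and 24.9 CPM after IL4 (log2 fold change 2.82, SE 0.48, adjusted p = 0.000473), and 8.95, 1.91 and 3.53 CPM in untreated cells. H2-DMa, which loads peptides, had 671, 459.8 and 518 CPM after IFN, against 121, 114 and 160 CPM after IL4 (log2 fold change 2.06, adjusted p = 5.15e-05), and 31.1, 21.0 and 27.9 CPM in untreated cells. In both genes the IL4 libraries were all above the untreated ones and all below the IFN ones. The invariant chain gene Cd74 averaged 11112 ± 1564 TPM after IFN, 3879.6 ± 1877 TPM after IL4 and 1084 ± 593 TPM in untreated cells (SD, n = 3 each). The protease gene Ctss was high in both states, with 8931 ± 1769 CPM after IFN and 6262 ± 2428 CPM after IL4, and was not called (adjusted p = 0.252).

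Costimulatory and checkpoint ligands showed an exchange of family members. Cd86 had 110.4, 176 and 143 CPM after IFN, against 5.33, 5.01 and 2.68 CPM after IL4 (log2 fold change 5.04, SE 0.33, adjusted p = 3.31e-08). Its relative Cd80 was higher after IL4 (log2 fold change -1.02, adjusted p = 0.0156), a call lost without library 6 (adjusted p = 0.0711, or 0.0849 without libraries 6 and 9). Cd274, the gene of PD-L1, had 1268, 1114 and 604 CPM after IFN, against 223, 125 and 65.3 CPM after IL4 (log2 fold change 2.85, adjusted p = 0.00172). Pdcd1lg2, the gene of PD-L2 and the other ligand of PD-1, had 1.35, 0.518 and 0.238 CPM after IFN, against 26.0, 18.4 and 18.1 CPM after IL4 (log2 fold change -4.87, SE 0.62, adjusted p = 6.10e-05). Untreated libraries held 55.2, 27.1 and 15.9 CPM of Cd274 and 0.102, 0 and 0 CPM of Pdcd1lg2. Of 14 tested genes 8 were higher after IFN and 3 after IL4.

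Chemokine genes were called in both directions. Cxcl9 and Cxcl10, which attract T cells through CXCR3, were prominent after IFN. Cxcl9 had 792, 1939 and 1631 CPM after IFN, against 0.0814, 0 and 0 CPM after IL4. Its ratio was 47919.8, with a 95% exact counting interval of 13265 to 395696. Cxcl10 had 531, 1512 and 1321 CPM after IFN, against 0.895, 0.52 and 1.61 CPM after IL4 (log2 fold change 10.12, SE 1.17, adjusted p = 1.29e-05). The list of 10 tested CXC ligands had 3 members higher after IFN and none after IL4, while its median log2 fold change was -0.94, opposite to the calls, with 7 members not called. Of 13 tested CC ligands 2 were higher after IFN and 5 after IL4, and the counts without libraries 6 and 9 were 1 toward IFN and 3 toward IL4. Ccl5, an attractant of T cells and monocytes, had 19.6, 115 and 46.8 CPM after IFN, against 3.21, 1.8 and 2.19 CPM after IL4 (log2 fold change 4.64, adjusted p = 0.000807). Ccl22, a ligand of CCR4 on regulatory and type 2 helper T cells, had 3.31, 3.52 and 2.08 CPM after IFN, against 41.9, 11.1 and 25.4 CPM after IL4 (log2 fold change -3.13, adjusted p = 0.00158). Ccl24, an eosinophil attractant, had 0 counts after IFN and 1.75, 1.09 and 6.82 CPM after IL4, at least 57.4-fold higher in IL4 cells against a floor of 3 counts over the IFN group. Among 11 chemokine receptors 3 were higher after IFN and 2 after IL4, with a median of 0.10 that turned to -0.07 with library size alone. Cxcr3 itself was higher after IFN (log2 fold change 2.13, adjusted p = 0.000477).

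Of 15 tested inflammatory cytokine genes, 7 were higher after IFN and 2 after IL4. Tnf had 164, 137 and 101 CPM after IFN, against 13.3, 14.2 and 8.52 CPM after IL4 (log2 fold change 3.48, SE 0.27, adjusted p = 1.87e-07). The IL4 libraries were also all below the untreated ones, which held 33.4, 62.8 and 46.9 CPM. Tnfsf10, the gene of the death ligand TRAIL, had 43.9, 96.9 and 70.2 CPM after IFN, against 2.04, 0.331 and 0.536 CPM after IL4 (log2 fold change 6.14, adjusted p = 1.11e-05). Il18 and the gene of its inhibitor, Il18bp, were both higher after IFN, with log2 fold changes of 2.05 and 5.41 (adjusted p = 4.34e-05 and 7.51e-05). Il1b was low in both states, with means of 0.994 ± 0.726 CPM after IFN and 0.298 ± 0.199 CPM after IL4, and was not called (adjusted p = 0.149). Igf1, a growth factor of tissue repair, had the larger change of the 2 members higher after IL4, with 42.6, 103 and 83.3 CPM after IFN, against 999, 1373 and 1071 CPM after IL4 (log2 fold change -3.91, SE 0.27, adjusted p = 6.26e-08).

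The arginine pathway held the best known pair of the 2 states. Nos2, inducible nitric oxide synthase, had 8.65, 97.6 and 24.9 CPM after IFN, against 0.366, 0 and 0 CPM after IL4 (log2 fold change 8.30, SE 1.12, adjusted p = 5.43e-05). Library 4 was the lowest and library 5 the highest of the IFN group. Without library 7, the IL4 library with reads, the fitted log2 fold change was 12.91. The IL4 group was then at 0, so that value depends on the prior count and is no measured fold. Arg1, the arginase that competes with it for substrate (chromosome 10, 24915221 to 24927484), had 0.673, 1.55 and 4.16 CPM after IFN, against 533, 339.7 and 1203 CPM after IL4 (log2 fold change -8.36, SE 0.88, adjusted p = 5.31e-06). Slc7a2, a carrier of arginine, was higher after IL4 (log2 fold change -2.64, adjusted p = 8.40e-05), and the other 10 of 13 tested genes were not called.

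**Figure D4:**
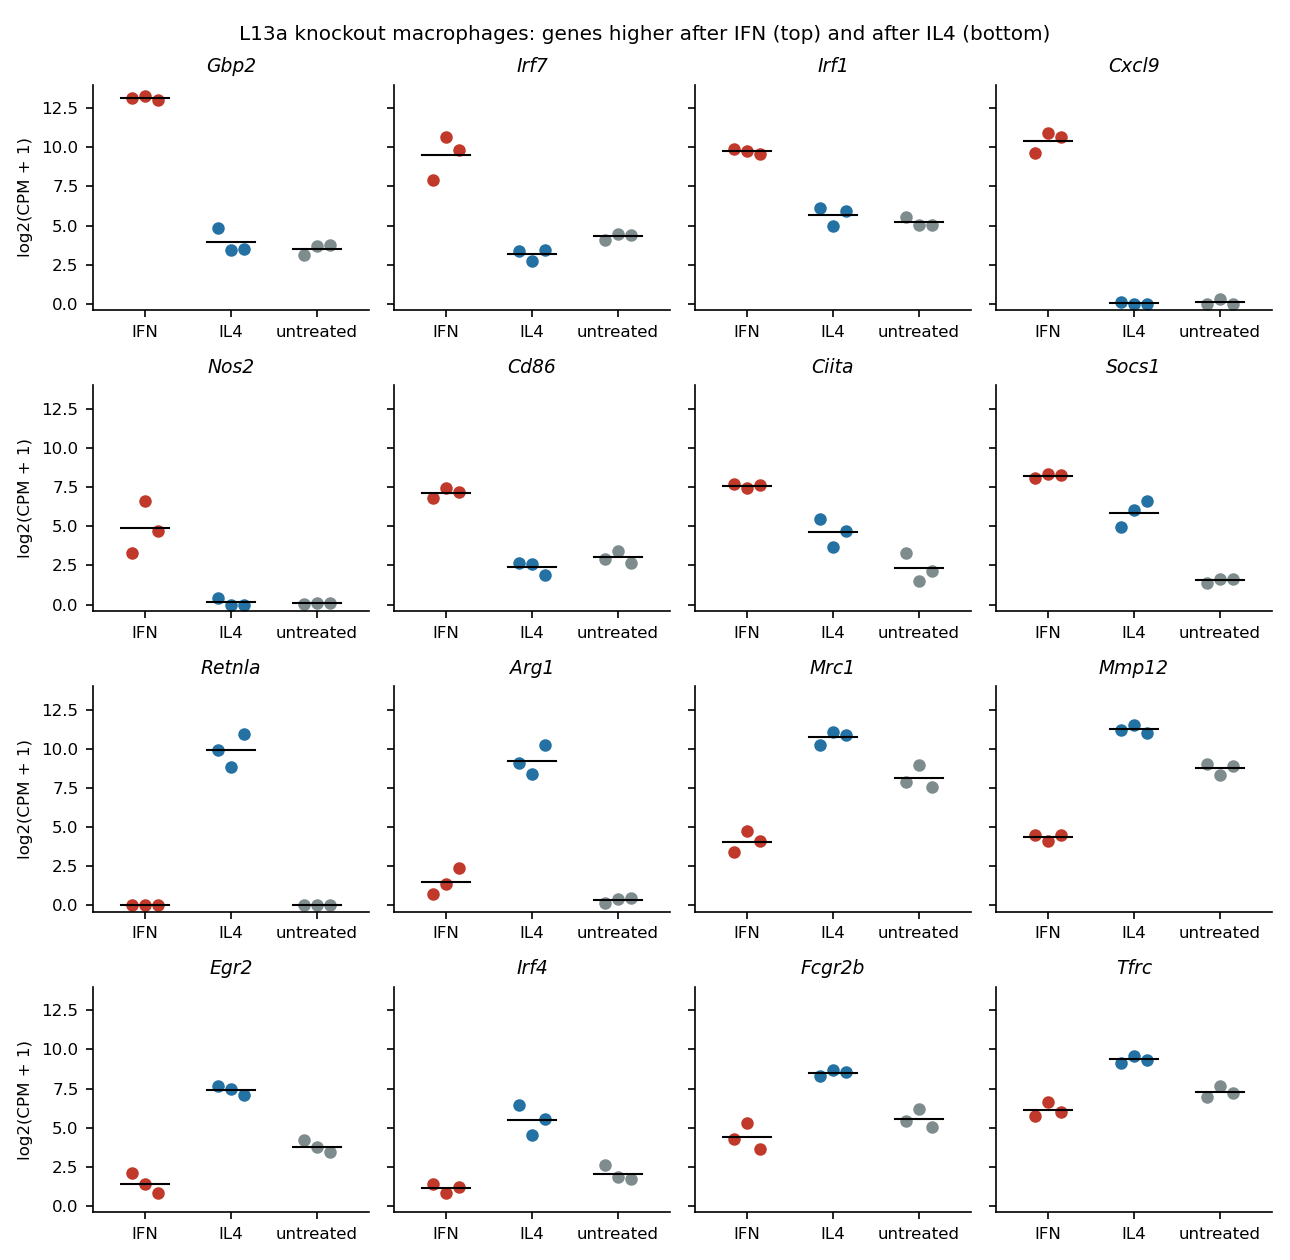
Levels of 16 genes as log2(CPM + 1) in each IFN, IL4 and untreated knockout library (points) with group means (bars). The upper 8 genes are higher after IFN and the lower 8 after IL4, with no overlap between these states; Socs1 and Ciita lie above the untreated level in both.

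Among 16 tested secreted effectors of alternative activation, 4 were higher after IFN and 10 after IL4 (median log2 fold change -3.69, the same with genes at 0 counts set to their bounds). Retnla, the gene of the secreted protein FIZZ1 (chromosome 16, 48842551 to 48844461), had 0 counts after IFN and 981, 463 and 1948 CPM after IL4. It was at least 20609.6-fold higher in IL4 cells against the floor, and untreated cells also held 0. Chil3, a chitinase-like protein gene, had 3.16, 4.56 and 0.119 CPM after IFN, against 385, 96.5 and 189.8 CPM after IL4 (log2 fold change -6.40, adjusted p = 0.000327). The ribonuclease gene Ear2 had 0 counts after IFN and was at least 798-fold higher after IL4, with 32.2, 10.5 and 90.0 CPM. The IL4 libraries spread widely for each of these genes. Ccl22, Ccl24 and Igf1 belong to this list and to those above. The members higher after IFN were Tgm2, Tgfbi, Pdgfb and Pdgfc. The Pdgfc call was lost with library size alone, with limma at the smaller pseudocount and without library 5, 6, 7 or 8. It was also lost with the 6 libraries or the 9 knockout libraries alone. Tgm2, a transglutaminase used in other work as an IL4 marker, had 2168, 1925 and 2001 CPM after IFN, against 373, 234 and 249.6 CPM after IL4 (log2 fold change 2.83, SE 0.30, adjusted p = 5.45e-06), and the untreated libraries, at 375, 241 and 234 CPM, lay at the IL4 level. The count toward IL4 was 7 when libraries 6 and 9 were left out.

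Cell surface lectins and scavenger receptors gave 3 calls toward IFN and 7 toward IL4 among 18 tested genes. The count toward IFN was 1 with library size alone and 1 without libraries 6 and 9. Mrc1, the mannose receptor, had 9.43, 26.1 and 15.98 CPM after IFN, against 1231, 2106 and 1892 CPM after IL4 (log2 fold change -6.66, SE 0.46, adjusted p = 7.37e-08). Untreated cells held 237, 490.1 and 189 CPM, above every IFN library and below every IL4 library. Mgl2, a galactose-binding lectin gene, had 0 counts after IFN and 66.1, 116 and 302 CPM after IL4, at least 2866-fold higher. Cd36, a fatty acid and lipoprotein receptor, had 522, 656 and 1134 CPM after IFN, against 1932, 2320.5 and 1888 CPM after IL4 (log2 fold change -1.41, adjusted p = 0.000556). Clec12a, an inhibitory lectin, was higher after IFN (log2 fold change 2.54, adjusted p = 6.94e-07).

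Sensors of microbes followed, with 11 of 17 Toll-like receptor genes and adaptors higher after IFN and none after IL4. Without libraries 6 and 9 the count was 7. Tlr9, a receptor of unmethylated DNA, had 64.4, 157 and 132 CPM after IFN, against 9.73, 3.5 and 4.19 CPM after IL4 (log2 fold change 4.33, SE 0.43, adjusted p = 2.68e-06). Tlr3 and the adaptor Myd88 were also higher after IFN (log2 fold change 2.41, adjusted p = 6.89e-06 for Tlr3, and log2 fold change 1.68, adjusted p = 3.11e-07 for Myd88). Tlr12 had 31.9, 25.4 and 32.0 CPM after IFN, against 0.0407, 0.0473 and 0.0487 CPM after IL4, where 3 counts were seen. The lipopolysaccharide receptor gene Tlr4 was not called (log2 fold change 0.34, adjusted p = 0.159).

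Fc receptors for IgG differed in both directions. The activating receptor Fcgr1 had 730.2, 1019 and 1048 CPM after IFN, against 15.9, 14.7 and 25.4 CPM after IL4 (log2 fold change 5.64, SE 0.34, adjusted p = 1.82e-08). Fcgr4, also activating, had 1106, 1193 and 1159 CPM after IFN, against 14.7, 10.5 and 15.97 CPM after IL4 (log2 fold change 6.39, SE 0.31, adjusted p = 2.36e-09). Fcgr2b, the inhibitory receptor, had 18.2, 38.8 and 11.5 CPM after IFN, against 313, 419 and 378 CPM after IL4 (log2 fold change -4.02, SE 0.47, adjusted p = 1.43e-05). The groups did not overlap for any of them, and the untreated libraries, at 42.2, 71.2 and 32.5 CPM of Fcgr2b, were all below the IL4 ones. Fcgr3, an activating receptor, was not called (log2 fold change 0.51, adjusted p = 0.0775). Fcer1g, the signalling chain, was higher after IFN (log2 fold change 1.08, adjusted p = 0.000226) and Fcrls higher after IL4 (log2 fold change -3.94, adjusted p = 0.00224), which makes 3 calls toward IFN and 2 toward IL4 of 7 tested genes.

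Complement genes gave 9 calls toward IFN and 1 toward IL4 among 19 tested. C4b, a component of the classical pathway, had 52.9, 68.2 and 54.7 CPM after IFN, against 0.936, 0.142 and 0.195 CPM after IL4 (log2 fold change 7.04, adjusted p = 8.10e-06). Factor B of the alternative pathway, Cfb, had 10.7, 193 and 59.1 CPM after IFN, against 0.0407, 0.236 and 0 CPM after IL4 (log2 fold change 9.83, adjusted p = 0.00016), with library 4 the lowest of the IFN group. Itgax, which encodes a chain of complement receptor 4, had 73.5, 35.2 and 71.7 CPM after IFN, against 1234, 672 and 587 CPM after IL4 (log2 fold change -3.79, SE 0.54, adjusted p = 8.40e-05). Of 17 inflammasome and pyroptosis genes 8 were higher after IFN and 0 after IL4. Casp4, the sensor of cytosolic lipopolysaccharide, had 124, 198 and 109 CPM after IFN, against 20.3, 21.2 and 11.8 CPM after IL4 (log2 fold change 3.01, adjusted p = 6.44e-06). Casp1 and Nlrp3 were higher after IFN by 1.91 and 1.69 on the log2 scale (adjusted p = 4.27e-06 and 6.16e-06).

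Metabolic lists are read against the 12% of all genes called higher after IFN and the 9.77% called higher after IL4. Of 18 glycolysis genes 8 were higher after IFN and none after IL4, and the count was 5 with library size alone and 5 without libraries 6 and 9. Hk3, a hexokinase of myeloid cells, had 2256, 1686 and 1586 CPM after IFN, against 443, 373 and 262 CPM after IL4 (log2 fold change 2.36, SE 0.25, adjusted p = 5.51e-06). Pfkfb3, which makes the activator of phosphofructokinase, was higher after IFN (log2 fold change 2.49, adjusted p = 8.83e-06), while Ldha was not called (log2 fold change -0.03, adjusted p = 0.96). In the citric acid cycle list 2 of 23 genes were higher after IFN and 4 after IL4. Acod1, which diverts aconitate to itaconate, had 184, 727 and 434 CPM after IFN, against 6.47, 2.31 and 4.63 CPM after IL4 (log2 fold change 6.64, SE 0.74, adjusted p = 8.83e-06). Idh1, the cytosolic isocitrate dehydrogenase, had 75.8, 76.1 and 50.1 CPM after IFN, against 277, 224 and 222 CPM after IL4 (log2 fold change -1.84, SE 0.20, adjusted p = 5.56e-06). Idh2, its mitochondrial relative, was also higher after IL4 (log2 fold change -1.39, adjusted p = 0.000639). With library size alone the counts were 1 toward IFN and 9 toward IL4, and without libraries 6 and 9 they were 1 toward IFN and 2 toward IL4.

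Fatty acid oxidation gave 1 call toward IFN and 6 toward IL4 among 19 tested genes, the first count being 0 with library size alone and without libraries 6 and 9. The acyl-CoA dehydrogenases Acadm and Acads differed by -0.61 and -1.04 on the log2 scale (adjusted p = 0.000325 and 4.00e-05), and Cpt1a, the entry step, was not called (log2 fold change 0.16, adjusted p = 0.646). Nuclear genes of oxidative phosphorylation gave few calls, with 4 of 51 higher after IFN and 1 after IL4. Their median of 0.09 turned to -0.08 with library size alone, and the count toward IFN was then 1. Cholesterol synthesis and other SREBP2 targets gave no call toward IFN and 7 of 23 toward IL4. Dhcr7, the last step of the pathway, had 27.6, 25.5 and 29.7 CPM after IFN, against 47.6, 60.3 and 64.0 CPM after IL4 (log2 fold change -1.05, SE 0.15, adjusted p = 9.10e-05). The count was 11 with library size alone and 2 without libraries 6 and 9. Hmgcs1, an early enzyme, had 22.3, 27.9 and 25.1 CPM after IFN, against 51.1, 91.9 and 127 CPM after IL4 (log2 fold change -1.84, adjusted p = 0.00287). The IL4 values of Hmgcs1 stood in the order of the cell cycle sums of those libraries, and the IFN values did not. The part of cell division in these values was not tested.

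Genes of glutathione synthesis and other NRF2 targets were more often higher after IL4, with 2 calls toward IFN and 13 toward IL4 among 26. Without libraries 6 and 9 the counts were 1 toward IFN and 10 toward IL4. Gclc, the limiting enzyme of glutathione synthesis, had 38.4, 36.2 and 37.0 CPM after IFN, against 103, 128 and 67.9 CPM after IL4 (log2 fold change -1.42, adjusted p = 0.000628). The cystine carrier gene Slc7a11 had 1.76, 3.16 and 2.44 CPM after IFN, against 25.1, 21.7 and 8.18 CPM after IL4 (log2 fold change -2.90, adjusted p = 0.000759). Catalase, Cat, had 157, 161 and 128 CPM after IFN, against 452, 659 and 285 CPM after IL4 and 463, 702 and 458 CPM in untreated cells (log2 fold change -1.65, adjusted p = 0.000462). For Cat the IFN libraries were the ones away from the untreated level. The mitochondrial superoxide dismutase gene Sod2 was higher after IFN (log2 fold change 0.96, adjusted p = 0.0106), a call lost without library 5 (adjusted p = 0.0523).

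Iron genes also differed in both directions. Tfrc, the transferrin receptor that brings iron in, had 51.9, 99.0 and 63.5 CPM after IFN, against 567, 782 and 642 CPM after IL4 (log2 fold change -3.21, SE 0.30, adjusted p = 1.21e-06). Slc11a1, which moves iron out of phagosomes, had 519, 751 and 626 CPM after IFN, against 248, 225 and 109 CPM after IL4 (log2 fold change 1.71, SE 0.32, adjusted p = 0.00101). Ftl1, the ferritin light chain and the most abundant gene called higher after IL4, averaged 16747 ± 1327 TPM after IFN and 31168 ± 6633 TPM after IL4 (SD, n = 3 each), log2 fold change -0.77, adjusted p = 0.0252. Hmox1, heme oxygenase, was higher after IL4 (log2 fold change -1.37, adjusted p = 0.00596), a call lost with the 6 libraries alone (0.0534). Of 13 tested genes 3 were higher after IFN and 6 after IL4. In the eicosanoid list the cyclooxygenases parted. Ptgs2, the inducible one, had 65.1, 96.6 and 78.0 CPM after IFN, against 9.24, 4.49 and 16.2 CPM after IL4 (log2 fold change 3.00, adjusted p = 0.000462). Ptgs1, the constitutive one, had 81.4, 99.2 and 122 CPM after IFN, against 246, 295 and 297 CPM after IL4 (log2 fold change -1.47, adjusted p = 0.00715). That list held 3 calls toward IFN and 4 toward IL4 of 12, with a median of 0.02 that turned to -0.15 with library size alone.

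Proteases of the lysosome and of the matrix differed strongly in single members. Of 36 lysosomal genes 8 were higher after IFN and 1 after IL4, the last becoming 6 with library size alone. Ctsc, which activates serine proteases of granules, had 2694, 3201 and 2919 CPM after IFN, against 194, 152 and 209 CPM after IL4 (log2 fold change 3.99, SE 0.21, adjusted p = 3.64e-09). Cathepsins B, D and L were not called (adjusted p = 0.403, 0.482 and 0.235). Mmp12, the macrophage elastase, had 21.9, 16.1 and 21.5 CPM after IFN, against 2347, 2906 and 2016 CPM after IL4 (log2 fold change -6.93, SE 0.51, adjusted p = 1.33e-07). Untreated libraries held 529.9, 316 and 466 CPM, between the states. Timp2, a protease inhibitor gene, was higher after IL4 (log2 fold change -2.16, adjusted p = 0.000252). The list of 14 metalloproteinases and inhibitors gave 3 calls toward IFN and 5 toward IL4.

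Genes of cell fusion and of osteoclasts, the multinucleated relatives of macrophages, gave 1 call toward IFN and 4 toward IL4 of 11. Dcstamp, needed for fusion, had 2.02, 3.01 and 4.75 CPM after IFN, against 40.7, 29.5 and 35.0 CPM after IL4 (log2 fold change -3.43, SE 0.46, adjusted p = 5.18e-05). Atp6v0d2, a proton pump subunit of osteoclasts, had 41.5, 48.9 and 22.5 CPM after IFN, against 1129, 948 and 569 CPM after IL4 (log2 fold change -4.55, SE 0.42, adjusted p = 1.31e-06). Cdh1, the gene of E-cadherin, had 0.311, 0.259 and 0.594 CPM after IFN, against 21.4, 36.3 and 68.9 CPM after IL4 (log2 fold change -6.76, adjusted p = 3.20e-06). Acp5 and Ctsk, markers of mature osteoclasts, were not called (adjusted p = 0.542 and 0.174).

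Several genes with the largest differences stood outside the lists. Serpina3f, a serine protease inhibitor gene, had 414, 443 and 375 CPM after IFN, against 0.529, 0.142 and 0.195 CPM after IL4 (log2 fold change 10.40, SE 0.44, adjusted p = 3.43e-09). Clic5, a chloride channel family gene, had 121, 478 and 170.4 CPM after IFN, against 0.733, 0.142 and 0 CPM after IL4 (log2 fold change 9.67, adjusted p = 2.06e-06). In the other direction, the sodium channel gene Scn3a, the homeobox gene Msx3 and the claudin gene Cldn11 had 0 counts after IFN. Against the floor they were at least 439-fold, 253-fold and 149-fold higher after IL4. Msx3 had 1.02, 8.88 and 33.8 CPM in the IL4 libraries, a wide spread. Tmem26, a membrane protein gene, had 0.155, 0.57 and 0.891 CPM after IFN, against 49.5, 81.2 and 95.2 CPM after IL4 (log2 fold change -7.14, adjusted p = 1.81e-06).

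Cell cycle and ribosomal protein genes were mostly not called, while genes of ribosome biogenesis were called more often toward IL4. Among 45 cell cycle genes 0 were higher after IFN and 1 after IL4, with a median log2 fold change of -0.47. The 1 call, Mki67, rested on overlapping groups, with 33.0, 14.6 and 76.8 CPM after IFN, against 62.6, 175 and 238 CPM after IL4 (log2 fold change -1.94, adjusted p = 0.0213). It was lost without library 4 (adjusted p = 0.0777), library 5 (0.0811), library 8 (0.0564) or library 9 (0.0982), and in fits of fewer libraries. Ribosome biogenesis gave 1 call toward IFN and 14 toward IL4 among 41 genes, beside 12% and 9.77% of all genes. The count toward IL4 was 24 with library size alone and 5 without libraries 6 and 9. Bop1, a factor of large subunit assembly, differed by -0.64 on the log2 scale (adjusted p = 0.000669). Of 79 cytosolic ribosomal protein genes other than Rpl13a, 1, Rps27, was higher after IFN and 0 after IL4 (median -0.11). The Rps27 call was lost without library 4 (adjusted p = 0.06) or without libraries 6 and 9 (0.0542). The summed level of the list was 38683, 26585 and 37861 CPM after IFN and 30439, 37481 and 43376 CPM after IL4, and the groups overlapped.

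The GAIT complex, in which L13a acts, was tested as 8 genes of its proteins and kinases, with 0 calls toward IFN and 1 toward IL4. This count and those of the other lists in this paragraph stand beside 12% and 9.77% of all genes. Syncrip, the gene of the complex protein NSAP1, had 109, 107 and 120.5 CPM after IFN, against 161, 199.9 and 200.2 CPM after IL4 (log2 fold change -0.74, adjusted p = 0.0119). That call was lost without libraries 6 and 9 (adjusted p = 0.0658). Eprs, whose protein binds the target mRNAs, was not called (log2 fold change -0.35, adjusted p = 0.175). Of 6 transcripts studied as GAIT targets, 2 were higher after IFN and 2 after IL4. Vegfa, the vascular growth factor, had 174, 189.5 and 73.2 CPM after IFN, against 34.1, 13.1 and 8.96 CPM after IL4 (log2 fold change 2.96, adjusted p = 0.0083). Ceruloplasmin, Cp, the first target described, was higher after IFN (log2 fold change 2.61, adjusted p = 0.0372), which rested on library 5 with 2.8, 17.9 and 3.09 CPM in IFN cells, against 2.32, 0.803 and 0.731 CPM in IL4 cells. Without library 5 the adjusted p was 0.373, and the call was also lost without library 8 (0.13) or library 9 (0.125), in fits of fewer libraries and with limma. Ccl22 and Ccr3 were higher after IL4, with log2 fold changes of -3.13 and -2.50. Endoplasmic reticulum chaperones gave 3 calls toward IFN and none toward IL4 among 20, and with library size alone 1 toward IFN and 1 toward IL4. Targets of p53 gave 2 calls toward IFN and 3 toward IL4 of 26, beside 12% and 9.77% of all genes, with a median of 0.03 that turned to -0.13 with library size alone. The count of p53 targets toward IFN was then 0, and without libraries 6 and 9 the counts were 0 toward IFN and 1 toward IL4.

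Wild type macrophages gave the same contrast from separate libraries. There 1429 genes were higher after IFN (11.4%) and 1138 higher after IL4 (9.09%), 2567 in all (20.5%). The genotypes shared 2130 calls in the same direction, which is 78.2% of the knockout calls and 83% of the wild type calls, and 1 gene was called in opposite directions. Of the 2723 genes called in knockout cells, 2711 had the same sign in wild type cells. For Gbp2 the log2 fold change was 9.12 in knockout cells and 8.88 in wild type cells (SE 0.57 and 0.57). Mrc1 differed by -6.66 in knockout and -5.43 in wild type cells, and Arg1 by -8.36 in knockout and -8.64 in wild type cells. Retnla had 0 counts after IFN in both genotypes and averaged 1131 ± 754 CPM in knockout IL4 cells and 828 ± 901 CPM in wild type IL4 cells (SD, n = 3 each).

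**Figure D5:**
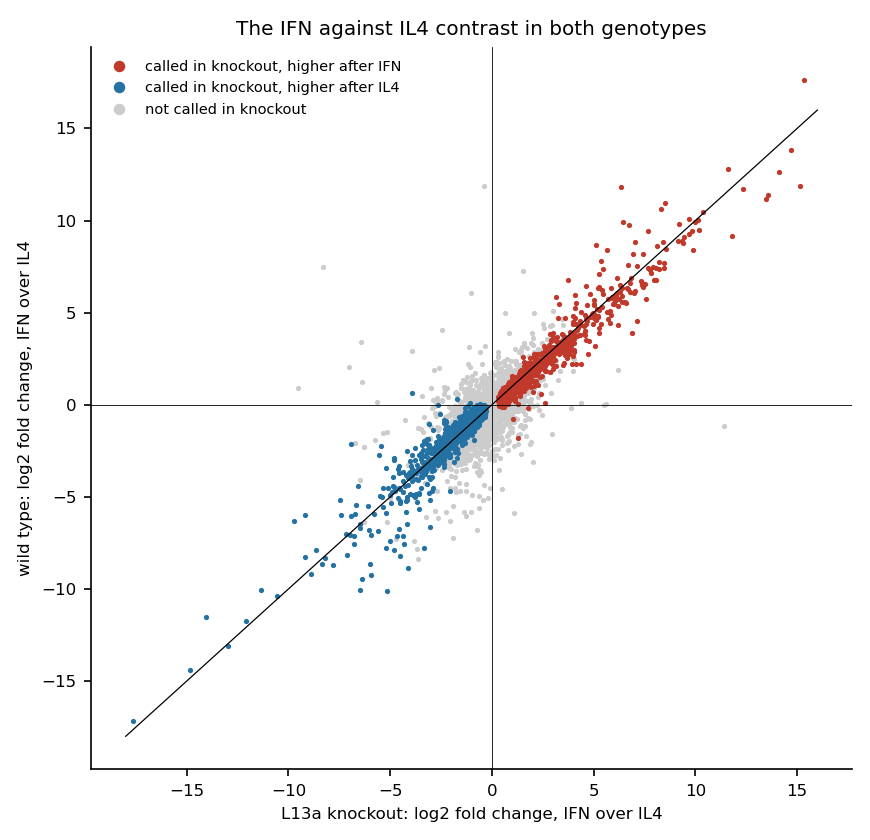
Log2 fold change of IFN over IL4 in L13a knockout cells (horizontal axis) and in wild type cells (vertical axis) for 12514 genes, with the line of equal values. Genes called in knockout cells run along the line, and 2711 of these 2723 have the same sign in both genotypes.

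The difference of the contrast between genotypes was tested for every gene. No gene passed in edgeR's quasi-likelihood test (0 of 12514, 0%), 152 had an unadjusted p under 0.05 (1.21%), and DESeq2 called 4 of 12508 (0.032%). A gene that did not pass is not shown to respond alike in both. The lowest p-values were those of Gm2000, Rps27, Samd11 and Cyp2u1, each with an adjusted p of 1. Rps27, a ribosomal protein gene, had 409, 251.8 and 312 CPM in knockout IFN cells, against 149.7, 164 and 162 CPM in knockout IL4 cells. In wild type cells it had 133, 127 and 279 CPM after IFN, against 319, 319 and 269.5 CPM after IL4. The difference of log2 fold changes, knockout minus wild type, was 1.78 (SE 0.38). Samd11, a gene of a SAM domain protein, differed by 1.68 (SE 0.41), and the predicted gene Gm2000 by 3.08 (SE 0.61). Cyp2u1 held under 1 CPM in every library compared. Without library 6 of wild type IFN cells, edgeR called 4 genes, Fau, Gm2000, Rpl23a-ps3 and Rps27.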

How the data were processed

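Poly-A RNA of 18 mouse macrophage libraries was sequenced on Illumina instruments, per the labels. The authors deposited RSEM expected counts and TPM per gene. The submitters' processing notes name Bowtie 0.12.8, RSEM 1.2.3 and the mm10 build, and strand use was not given in the sources used here. RSEM divides reads shared by near-identical genes, and 21.5% of the deposited expected counts were not whole, so they were rounded.

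Genes with low counts were removed with filterByExpr. The edgeR 4.0.16 quasi-likelihood test (R 4.3.3, TMM scaling, robust) was fitted to all 18 libraries with 1 coefficient per group, with Benjamini-Hochberg adjustment over 12514 genes and calls at 0.05. The SE is the log2 fold change over the root of the F value. DESeq2 1.42.0 and limma 3.58.1 on deposited TPM were alternatives. The code was tested on simulated data. GENCODE vM21 gave coordinates for 21855 of 21954 symbols. A 0 was replaced by a floor of 3 counts over the group, and ratios have 95% exact intervals for counting error only.

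Named genes are preset genes, the 15 largest changes each way without overlap and at 5 CPM or more, and up to 4 lowest p-values per list and direction. Genes named outside this rule were chosen after their values were seen. Members and lists were chosen with earlier results of these data known. Replicate numbers were not taken as pairs across genotypes, since the labels give them no shared source and not every same-numbered pair deviated together.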

Additional observations from a re-analysis of the deposited data

Results flagged for a closer look

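The IFN against IL4 contrast differed between knockout and wild type cells for 4 genes by DESeq2's interaction test, which edgeR did not call. Differences are log2 fold changes in knockout minus wild type cells. Gm2000, a predicted gene, differed by 3.07 (DESeq2 adjusted p = 0.0034), with 19.0, 6.74 and 11.3 CPM in knockout IFN cells, against 4.6, 5.62 and 4.87 CPM in knockout IL4 cells. In wild type cells Gm2000 had 3.33, 2.13 and 8.67 CPM after IFN, against 20.4, 15.8 and 12.2 CPM after IL4. Rps27 differed by 1.78 (DESeq2 adjusted p = 0.0194), with the library values given above. Gm20431 had a fitted difference of -26.14 (DESeq2 adjusted p = 0.0116) and RP23-325D10.3 one of -43.11 (adjusted p = 3.69e-05). Both fitted values depend on libraries at 0 and are no measured folds: Gm20431 was above 0 in 1 of 3 knockout IFN libraries (30.8 CPM) and 1 of 3 knockout IL4 libraries (40.8 CPM). In wild type cells it had 47.6, 1.34 and 13.8 CPM after IFN and 0 in all IL4 libraries. RP23-325D10.3 was above 0 in 1 knockout library, of IL4 cells (5.25 CPM), and in 2 wild type libraries, both of IFN cells (1.97 and 0.99 CPM).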

How the results depend on the processing

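Of 226 called genes among the 230 tested that were named or preset, 183 kept the call in all 17 alternatives, 43 lost it in at least 1, and none of the called genes changed direction. The number of genes called was 2723, against 1699 with the 6 libraries compared only, where 689 were higher after IL4. With library size alone 1998 genes were higher after IL4, against 1223 with TMM. Leaving out each library gave 2152 to 2752 calls, 1174 to 1491 higher after IFN and 931 to 1261 higher after IL4, and 2040 to 2280 in wild type cells. The difference between genotypes gave 0 calls with edgeR, 4 with DESeq2 and 0 to 4 when each library was left out. With the replicate block, numbers pairing the genotypes, it gave 0 calls. Same-numbered libraries correlated at 0.701, 0.0697 and 0.496 in untreated cells, 0.086 to 0.375 in IFN cells and 0.464 to 0.671 in IL4 cells. Of 9 knockout libraries 6, including all 3 of IL4 cells, correlated best with their own number, a hint from the data and not from the design. No paired analysis was possible for IFN against IL4 because these groups share no replicate numbers in the labels. Genes not called changed direction: Rpl13a (-0.813 to 0.091 on leaving out each library, the high end without library 9), Adgre1 (-0.059 to 0.399, the low end without library 5) and Csf1r (-0.014 to 0.242, the low end without library 9, -0.072 with library size alone and -0.043 with limma); the cause was not tested. Stricter letters found fewer promoters: TTCCNGGAA in 1.72% of windows of genes higher after IFN, 1.38% of those higher after IL4 and 1.2% of all windows. TTCC with GGAA after any 2 bases stood in 0.66%, 0.733% and 0.93% of the same sets. For these letters neither state lay above all windows, while the main STAT6 type letters put genes higher after IL4 above them. At low counts, depth limits folds to the bounds given.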

Other observations

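Gene families outside the lists were described after their values were seen, with no test of the family. Their counts stand beside the 12% of all genes called higher after IFN and the 9.77% called higher after IL4. All 10 tested genes of the Ifi200 family, which includes sensors of DNA, were higher after IFN, with a median log2 fold change of 5.25. Ifi204 had 468, 708 and 547 CPM after IFN, against 77.7, 51.5 and 45.5 CPM after IL4 (log2 fold change 3.30, adjusted p = 1.81e-06), and these paralogues share reads. Of 7 Schlafen genes 6 were higher after IFN and 0 after IL4. Of 12 poly ADP-ribose polymerase genes 7 were higher after IFN and 1 after IL4. Tripartite motif genes gave 12 calls toward IFN and 4 toward IL4 among 42, and integrin chains 5 and 3 among 21. Interleukin receptor chains split evenly, with 8 of 23 higher after IFN and 8 higher after IL4. Il12rb1, a chain of the IL12 receptor, had 85.1, 89.8 and 65.1 CPM after IFN, against 0.651, 0.331 and 0.146 CPM after IL4 (log2 fold change 7.67, adjusted p = 3.71e-08). Il27ra, a chain of the IL27 receptor, had 1.29, 0.674 and 1.37 CPM after IFN, against 14.7, 8.65 and 13.9 CPM after IL4 (log2 fold change -3.48, adjusted p = 2.07e-05). Among 16 subunits of the vacuolar proton pump 1 was higher after IFN and 7 after IL4. Atp6v0a1 had 152, 135 and 124 CPM after IFN, against 989.7, 881 and 696 CPM after IL4 (log2 fold change -2.64, adjusted p = 8.67e-07).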
